A study of Homo sapiens with 24 samples.

Results

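G669043, a compound that the labels call a prodrug, was given to HCT116 cells at 1500 nM and at 150 nM for 72 h, and the RNA of the treated cells was set against each other across the genome. HCT116 is an established human colorectal cancer line. The arrays compared were the 2 titled with G669043 and 1500 nM and the 2 titled with G669043 and 150 nM, 4 of the 24 arrays in the series. The series profiled inhibitors of DNA methyltransferase 1 (DNMT1) on Affymetrix HG-U133 Plus 2.0 arrays, in 11 groups. Beside the 2 G669043 groups, this comparison draws on 2 arrays of azacytidine (Aza) at 1500 nM, 2 of Aza at 150 nM and 4 of the solvent dimethyl sulfoxide (DMSO), all at 72 h, and every compound was added as a stock in DMSO. The titles of the G669043 samples start with Aza while their source names give only the prodrug, which does not settle whether it is a form of Aza, and no structure is given for it. Nothing in the labels says that the arrays of a group came from separate cultures, so p-values measure the spread between these arrays, which may be technical.

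Azacytidine is a cytidine analogue that cells phosphorylate and build into RNA and, after reduction, into DNA, where it traps DNMT1 on newly made strands. Methyl groups on CG dinucleotides are then not copied at replication, and promoters that methylation keeps silent can be transcribed. Genes of the germ line, many of them on the X chromosome, are a known class of such promoters, and many tumours switch some of them on. A prodrug is a compound that the cell or the body turns into an active drug.

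Values are log2 of the authors' RMA intensities, so a difference of 1 is a 2-fold change. Each fold change sets 2 arrays against 2 arrays, with the standard error (SE) and Benjamini-Hochberg adjusted p of limma. Of 18055 genes tested, 306 (1.69%) were higher and 393 (2.18%) lower at 1500 nM than at 150 nM at an adjusted p under 0.05, 699 (3.87%) in all, and a gene past that threshold is called. With the arrays quantile normalized again the split was 382 higher and 256 lower. The increases were larger than the decreases. Among called genes, 62 (0.343% of those tested) rose at least 2-fold and 4 (0.0222%) fell at least 2-fold, and 20 rose and 0 fell at least 4-fold. The median change was 0.55 over the higher genes, −0.41 over the lower genes and 0 over all genes tested. Both 1500 nM arrays lay above both 150 nM arrays in all 306 higher genes and below them in all 393 lower genes, against 24.2% above and 26.6% below among all genes. They also lay above all 4 DMSO arrays in 282 of the higher genes and below them in 360 of the lower genes, against 7.58% and 7.63% of all genes. The calls were made on these same 1500 nM and 150 nM arrays, so none of these counts is separate support for them. Without any 1 of the 4 arrays the count of called genes was smaller, at 230 without replicate 1 at 1500 nM, 248 without replicate 2 at 1500 nM, 256 without replicate 1 at 150 nM and 241 without replicate 2 at 150 nM. The count of genes changed at least 2-fold held between 64 and 66 in the same fits.

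**Figure D1:**
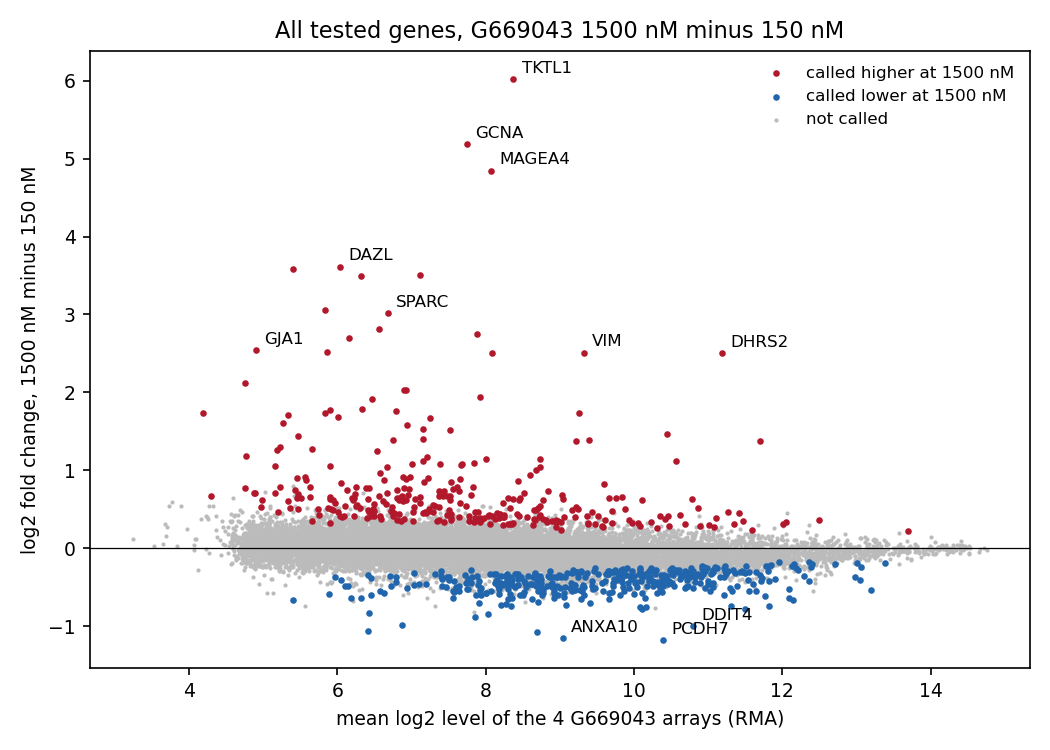
Each point is a gene, with the mean log2 level of the 4 G669043 arrays on the x axis and the log2 fold change, 1500 nM minus 150 nM, on the y axis. Called genes are red (306 higher) or blue (393 lower), and the highest point is TKTL1 at 6.03 while the lowest is PCDH7 at −1.18.

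The 4 arrays were alike within a dose. The correlation across genes was 0.997 between the arrays of each dose and 0.992 to 0.993 between doses, and the median 95% interval of a gene's fold change reached 0.24 to either side. On the first principal component of all arrays (53.4% of the variance), the 1500 nM arrays lay at −7.6 and −8.4 and the 150 nM arrays at −27.3 and −27.3. The DMSO arrays lay between −29.2 and −26.5, so the 150 nM arrays fell within the range of the solvent arrays there. On the second component (15.8%) the 1500 nM arrays lay at −4.0 and 5.1 and the 150 nM arrays at 16.5 and 14.1, while DMSO replicates 1 and 2 lay at −13.6 and −11.1 and replicates 3 and 4 at 18.2 and 12.8. The difference between the DMSO pairs ran along many of the lower genes: 314 of the 393 (79.9%) had a lower mean in DMSO replicates 1 and 2 than in 3 and 4, against 44.4% of all genes. Among the higher genes 189 of 306 (61.8%) had a higher mean in replicates 1 and 2, against 55.6% of all genes. With DMSO as 2 groups all 306 higher and 393 lower genes stayed called, and with a score along the split as covariate 305 and 393. Both fits were chosen after seeing the data, and what part of the fold changes belongs to the split was not tested. The 3′ minus 5′ difference of the beta-actin control probe sets, a sign of RNA quality, was 0.07 and 0.34 at 1500 nM and 0.11 and 0.08 at 150 nM. The labelled cell type had its markers: EPCAM, CDH1, KRT8, KRT18, KRT19 and CLDN7 lay between 10.16 and 13.85 at 1500 nM and between 10.36 and 13.82 at 150 nM, and none of the 6 was called.

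Members of the 2 germ line lists below were 9 of the 15 genes with the largest increases, counting LIN28B and ZFP42. The list of cancer-testis antigens, genes normally active in the testis and switched on in tumours, had 28 tested members out of 42, of which 14 (50%) rose, 0 fell and 14 did not pass, with a median change of 0.46. The list of germ cell and meiosis genes had 39 tested members out of 48, of which 10 (25.6%) rose, 0 fell and 29 did not pass, with a median of 0.21. The share of all tested genes that rose was 1.69%, and the median over all of them was 0. The lists were drawn up with earlier results of these data known, so the shares called are not separate support. Without replicate 1 at 1500 nM, 9 cancer-testis antigens were called.

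TKTL1, a transketolase-like protein gene on the X chromosome that is active in testis, had the largest increase on the probe sets chosen. Its level was 11.36 and 11.41 at 1500 nM, against 5.54 and 5.18 at 150 nM, a change of 6.03 ± 0.18 (SE, 65.1-fold, adjusted p = 3.82e-14). The 150 nM arrays lay at or under the top of the DMSO range of 4.70 to 5.54, and the 1500 nM arrays far above it. The other probe set of TKTL1 changed by 3.85, and the mean of both by 4.94, below the change of GCNA. GCNA, a germ cell nuclear antigen on the X chromosome that guards genome stability, had 10.27 and 10.41 at 1500 nM, against 5.18 and 5.13 at 150 nM (5.18 ± 0.17, SE, adjusted p = 8.49e-14). Its arrays at 150 nM were within the DMSO range of 4.89 to 5.47. DAZL, an RNA-binding protein needed for germ cell formation, is on chromosome 3. It had 7.68 and 8.01 at 1500 nM and 4.45 and 4.01 at 150 nM (3.61 ± 0.22, adjusted p = 1.08e-09). No DMSO array passed 4.51, so DAZL too stayed at the solvent level at 150 nM. MAEL, which acts with piRNAs to silence transposons in the male germ line, had 8.88 and 8.87 at 1500 nM and 5.17 and 5.56 at 150 nM (3.51 ± 0.13, adjusted p = 5.04e-13). LIN28B and ZFP42 are known from stem cells, LIN28B as a blocker of let-7 microRNA maturation and ZFP42 (REX1) as a marker of pluripotency. LIN28B had 7.99 and 8.16 at 1500 nM, against 4.63 and 4.52 at 150 nM (3.50 ± 0.16, adjusted p = 1.35e-11). ZFP42 had 7.80 and 8.12 at 1500 nM and 5.26 and 5.04 at 150 nM (2.81 ± 0.27, adjusted p = 1.14e-06). The other probe sets of ZFP42 changed by 1.62 and 0.91, so the value above is the largest of its 3. In none of these genes did the doses overlap, as the rule for naming them required. The remaining 4 called members of the list rose by 0.50 to 1.58.

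Among the cancer-testis antigens the MAGE-A family led. These X-linked genes encode proteins that bind RING ubiquitin ligases and supply peptides that T cells recognise on tumours. MAGEA4 had 10.38 and 10.61 at 1500 nM and 5.68 and 5.62 at 150 nM (4.84 ± 0.19, SE, adjusted p = 8.14e-13). MAGEA11, also a co-regulator of the androgen receptor, had 7.23 and 7.50 at 1500 nM, against 3.92 and 4.69 at 150 nM (3.06 ± 0.22, adjusted p = 1.98e-08). MAGEA1 had 9.23 and 9.28 at 1500 nM, against 6.70 and 6.31 at 150 nM (2.75 ± 0.17, adjusted p = 1.69e-09). The rule for naming these 3 genes required both 1500 nM arrays to lie above both 150 nM arrays. The other 11 called antigens rose by 0.40 to 2.51. Outside both lists, FMR1NB, an X-linked gene known from testis and tumours, had 7.14 and 7.25 at 1500 nM and 3.76 and 3.47 at 150 nM (3.58 ± 0.20, adjusted p = 3.78e-10). COX8C, a testis form of a cytochrome c oxidase subunit on chromosome 14, had 7.00 and 7.24 at 1500 nM and 4.91 and 4.30 at 150 nM (2.52 ± 0.19, adjusted p = 5.99e-08). The X chromosome held 33 of the 306 higher genes (10.8%) and 8 of the 393 lower genes (2.04%), against 623 of all tested genes (3.45%), and 15 of those 33 belonged to the germ line lists. For 26 of the higher genes, the mean at 150 nM was under a log2 level of 5. Detection calls were not used here, so the distance of such levels from background is unknown, and so is the true size of those fold changes.

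**Figure D2:**
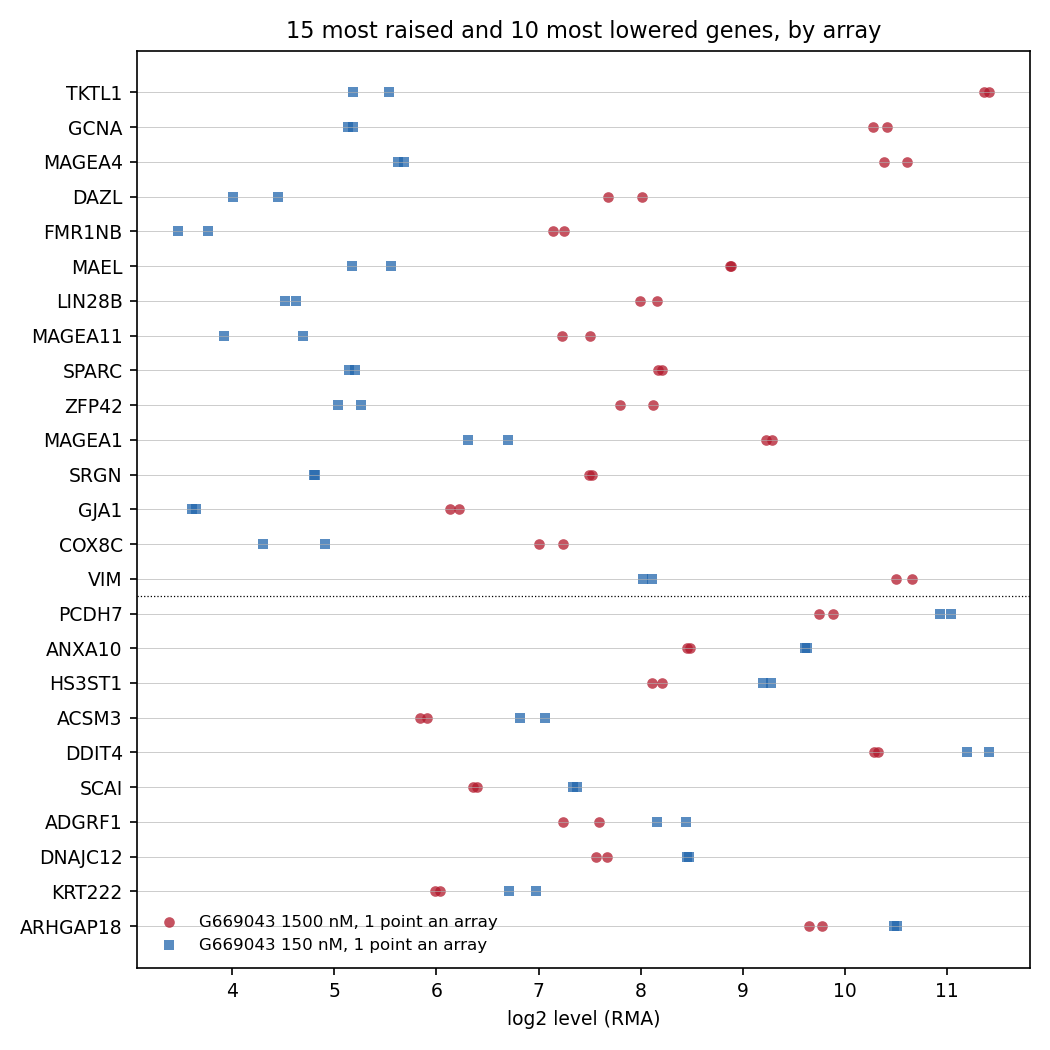
Log2 level on each array for the 15 called genes with the largest increase (above the dotted line) and the 10 with the largest decrease. Red circles are the 2 arrays at 1500 nM and blue squares the 2 at 150 nM. Only genes in which the colours do not overlap were eligible. They run from TKTL1 (11.36 and 11.41, against 5.54 and 5.18) down to ARHGAP18 (9.65 and 9.77, against 10.51 and 10.48).

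The promoters of 2 germ line genes are shown because methylation acts on CG dinucleotides. They run from 250 bases before to 50 after the gene start, come from RefSeq on GRCh38.p14, and have each CG in capitals. TKTL1 (chrX:154295545-154295844, plus strand) held 18 CG and DAZL (chr3:16605374-16605673, minus strand) held 33.
TKTL1: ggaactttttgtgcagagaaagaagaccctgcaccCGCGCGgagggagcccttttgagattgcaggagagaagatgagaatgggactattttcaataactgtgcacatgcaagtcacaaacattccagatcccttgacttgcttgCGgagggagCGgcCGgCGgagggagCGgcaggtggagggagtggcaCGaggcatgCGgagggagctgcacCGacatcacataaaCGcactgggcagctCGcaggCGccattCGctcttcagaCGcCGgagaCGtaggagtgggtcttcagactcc
DAZL: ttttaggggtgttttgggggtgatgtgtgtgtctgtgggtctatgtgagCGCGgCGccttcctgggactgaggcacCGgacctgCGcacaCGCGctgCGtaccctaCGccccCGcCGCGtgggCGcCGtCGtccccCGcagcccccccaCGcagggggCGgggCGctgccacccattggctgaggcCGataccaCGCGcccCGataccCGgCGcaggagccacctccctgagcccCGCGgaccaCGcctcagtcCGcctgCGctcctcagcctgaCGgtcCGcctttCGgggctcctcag

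The median over the 21 of 24 called germ line genes with such a promoter was 18 CG, and 26 over the 324 of 393 lower genes, beside 23 over the 14116 tested genes that had one. It was also 18 over the 54 of 67 tested germ line genes with a promoter, called or not, so it does not mark the called ones. RefSeq promoters matched 77.5% of the 306 higher genes, under the 80% needed, so the check of CG content over that set is void. The tested genes as a whole, at 78.2%, also fall short of it, so their median and the shares of motifs over them describe only the genes matched.

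Several genes outside the germ line rose as well. In a list of 49 genes known to be methylated in colorectal tumours, 5 (10.2%) rose, 2 (4.08%) fell and 42 did not pass, with a median of 0.05. Of all tested genes 1.69% rose and 2.18% fell. Named after their values were seen, the cytokine signalling inhibitor SOCS1 rose by 0.62, and the DNA repair genes MGMT and WRN fell by 0.50 and 0.40. Without replicate 2 at 1500 nM 1 member was called lower, and without any 1 of the other 3 arrays 0. CDKN1C rose by 0.36. VIM, the intermediate filament vimentin of mesenchymal cells and a stool marker gene for colorectal cancer methylation, had 10.65 and 10.50 at 1500 nM and 8.11 and 8.02 at 150 nM (2.51 ± 0.08, SE, adjusted p = 8.49e-14). UCHL1, a neuronal ubiquitin hydrolase, had 8.93 and 8.86 at 1500 nM and 7.18 and 6.73 at 150 nM (1.94 ± 0.17, adjusted p = 3.85e-07). TFPI2, a serine protease inhibitor, had 6.51 and 6.50 at 1500 nM and 6.00 and 5.51 at 150 nM (0.75 ± 0.18, adjusted p = 0.0202). The arrays at 1500 nM lay closer together than those at 150 nM for the last 2 genes. TFPI2 lost the call without either array at 1500 nM and without replicate 2 at 150 nM, and on its other probe set it changed by 0.12 (adjusted p = 0.794 by limma). For this list 2 or 3 members were called higher without any 1 of the 4 arrays. Only 1 of the 2 probe sets of UCHL1 went this way, and without probe sets that match several transcripts (names ending in _s_at or _x_at) its change was −0.040. SPARC, a matrix protein of fibroblasts and bone, had 8.17 and 8.21 at 1500 nM and 5.20 and 5.14 at 150 nM (3.02 ± 0.24, adjusted p = 9.96e-08). Its other probe set changed by 0.56, with 5.91 and 6.07 at 1500 nM and 5.41 and 5.45 at 150 nM. SRGN, the proteoglycan serglycin of blood cell granules, had 7.49 and 7.52 at 1500 nM and 4.81 and 4.80 at 150 nM (2.70 ± 0.27, adjusted p = 1.94e-06). GJA1, the gap junction protein connexin 43, had 6.13 and 6.22 at 1500 nM and 3.61 and 3.65 at 150 nM (2.55 ± 0.17, adjusted p = 9.09e-09). SPARC, VIM and SRGN are also markers of other cell types. Of 21 fibroblast markers 4 rose, SPARC, VIM, COL6A3 by 1.53 and DCN by 0.45, and 1 fell, S100A4 by 0.52, where DCN and S100A4 were named after their values were seen. Of 20 blood cell markers 2 (10%) rose, SRGN and CORO1A, an actin-binding protein of leukocytes. The summed fibroblast level was 12.81 and 12.80 at 1500 nM and 12.54 and 12.52 at 150 nM, with 12.60 to 12.71 on the DMSO arrays. The summed blood level was 11.72 and 11.69 at 1500 nM and 11.47 and 11.46 at 150 nM, with 11.49 to 11.66 on the DMSO arrays. Both sums thus lay above the solvent range at 1500 nM and below it at 150 nM, and the part of other cell types in the result was not tested. The defining fibroblast markers COL1A1, COL1A2, DCN and PDGFRB lay between 6.36 and 10.03 at 1500 nM and between 6.65 and 9.92 at 150 nM, and the blood markers CD3E, CD14, HBB and CD53 between 5.42 and 8.92 at 1500 nM and between 5.27 and 8.85 at 150 nM. Only DCN of these 8 was called, and COL3A1, LUM and PTPRC were not tested. Of 15 keratinocyte markers 0 were called, and of 23 neuronal markers 1 (4.35%) rose, UCHL1, and 1 (4.35%) fell, SYT1.

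Among intestinal genes, KRT20, a keratin of differentiated intestinal epithelium, rose to 7.70 and 7.65 at 1500 nM, against 5.71 and 6.11 at 150 nM (1.76 ± 0.12, SE, adjusted p = 5.39e-09). CA2, a carbonic anhydrase, fell by 0.49 and CLDN4, a tight junction claudin, by 0.38, and the other 25 of the 28 members did not pass. The shares called were 3.57% higher and 7.14% lower, beside 1.69% and 2.18% of all tested genes. HOX genes, which set position along the body, were called higher in 3 of 26 cases (11.5%, beside 1.69% of all tested genes), with a median of 0.09. They were HOXB6 (0.66), HOXB2 (0.65) and HOXC10 (0.57). For HOXB6, 1 of 2 probe sets went this way. Without replicate 2 at 1500 nM 1 of the 3 was called, and without replicate 2 at 150 nM 0. Of 25 imprinted genes, PEG10 and CDKN1C (8%) rose, by 0.65 and 0.36. PEG10 and CLDN4 lost the call without any 1 of the 4 arrays, and CDKN1C without any 1 but replicate 1 at 1500 nM.

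Some histone genes rose. Of 27 tested members 6 (22.2%, beside 1.69% of all tested genes) rose, 0 fell and 21 did not pass, with a median of 0.12. H2BC12 had 11.07 and 11.19 at 1500 nM and 9.97 and 10.05 at 150 nM (1.12 ± 0.15, SE, adjusted p = 0.000108). H2BC5 had 9.04 and 9.08 at 1500 nM and 8.11 and 8.14 at 150 nM (0.93 ± 0.10, adjusted p = 5.99e-06). H2BC6 had 8.09 and 8.12 at 1500 nM and 7.34 and 7.08 at 150 nM (0.89 ± 0.12, adjusted p = 0.000188). All 3 encode histone H2B, a core protein of the nucleosome. The other 3 called members, for H2A, H2B and H1, rose by 0.71 to 0.75. Transcripts of histone genes are near-identical within a family, so their probe sets can share signal.

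Several targets of p53, the stress-induced transcription factor that is wild type in HCT116 cells, rose by modest amounts. Of 57 tested members 9 (15.8%) rose, 1 (1.75%) fell (KITLG, named after its value was seen) and 47 did not pass. A positive difference was seen in 48 of the 57, with a median of 0.13. Of all tested genes 1.69% rose and 2.18% fell. CDKN1A, the p21 inhibitor of cyclin-dependent kinases, had 11.11 and 11.09 at 1500 nM and 10.51 and 10.42 at 150 nM (0.63 ± 0.08, SE, adjusted p = 9.64e-05). TP53I3, a quinone oxidoreductase, had 8.77 and 8.75 at 1500 nM and 8.18 and 8.09 at 150 nM (0.62 ± 0.10, adjusted p = 7e-04). TP53INP1, a stress protein that acts with p53, had 8.99 and 9.18 at 1500 nM and 8.55 and 8.39 at 150 nM (0.61 ± 0.12, adjusted p = 0.00537). For all 3 the 150 nM arrays were already above the highest DMSO array, at 10.29 for CDKN1A, 8.06 for TP53I3 and 8.38 for TP53INP1. The median of the list over DMSO was 0.29 at 1500 nM and 0.16 at 150 nM. The count of raised targets depended on the setting. It was 3 without replicate 1 and 3 without replicate 2 at 1500 nM, 5 without replicate 1 and 2 without replicate 2 at 150 nM, and 16 with the arrays quantile normalized again. TP53INP1 lost the call without replicate 2 at either dose.

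Some genes of DNA replication fell at 1500 nM. Of 55 tested members of the S phase list 10 (18.2%) fell, 0 rose and 45 did not pass, beside 2.18% of all tested genes that fell. A negative difference was seen in 48 of the 55, with a median of −0.18. PRIM1, the catalytic subunit of primase, had 11.04 and 11.04 at 1500 nM and 11.57 and 11.52 at 150 nM (−0.50 ± 0.07, SE, adjusted p = 0.00026). RFC4, a subunit of the clamp loader, had 10.81 and 10.83 at 1500 nM and 11.30 and 11.33 at 150 nM (−0.49 ± 0.10, adjusted p = 0.00736). RFC3, another subunit of that loader, had 10.03 and 10.15 at 1500 nM and 10.55 and 10.66 at 150 nM (−0.51 ± 0.13, adjusted p = 0.0326). The 150 nM arrays of RFC3 lay at or above the top of its DMSO range, 10.14 to 10.55, while those of PRIM1 and RFC4 lay within the DMSO range. The median of the list over DMSO was −0.06 at 1500 nM and 0.11 at 150 nM. The other 7 called members fell by 0.31 to 0.44. These calls rested on all 4 arrays. RFC3 and RFC4 lost the call without any 1 of them, and 1 member was called without replicate 1 at 1500 nM, 3 without replicate 2 at 1500 nM, 2 without replicate 1 at 150 nM and 2 without replicate 2 at 150 nM. In the DNA repair list 3 of 48 fell (6.25%): BRIP1, a helicase of the Fanconi pathway, by 0.63, PMS1, a mismatch repair protein, by 0.44, and UBE2T, a ubiquitin-conjugating enzyme of the Fanconi pathway, by 0.29. For PMS1 1 of 4 probe sets went this way, and without probe sets that match several transcripts its change was 0.21. All 3 lost the call without replicate 1 or without replicate 2 at 1500 nM. Of 65 genes of G2/M and mitosis 0 were called. Their median was −0.10, and 47 of them had a negative difference.

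Several genes of the unfolded protein and integrated stress response and of tRNA charging fell at 1500 nM. In the integrated stress response stress kinases raise the translation of ATF4, a transcription factor that switches on amino acid transporters and tRNA charging enzymes. Of 40 tested genes of the unfolded protein and integrated stress response 6 (15%) fell, 1 rose and 33 did not pass, with a median of −0.11. Of 17 genes for tRNA charging enzymes 4 (23.5%) fell, 0 rose and 13 did not pass, with a median of −0.21. Of all tested genes 2.18% fell and 1.69% rose. DDIT4 (REDD1), an inhibitor of mTORC1 signalling, had 10.28 and 10.32 at 1500 nM and 11.41 and 11.19 at 150 nM (−1.0 ± 0.13, SE, adjusted p = 6.56e-05). SLC7A11, the cystine transporter, had 9.71 and 9.86 at 1500 nM and 10.54 and 10.53 at 150 nM (−0.75 ± 0.10, adjusted p = 9.02e-05). AARS1, the alanyl-tRNA synthetase, had 10.71 and 10.71 at 1500 nM and 11.21 and 11.23 at 150 nM (−0.51 ± 0.09, adjusted p = 0.0013). In SLC7A11 both 150 nM arrays were above the highest DMSO array, 10.45, whereas in DDIT4 and AARS1 they lay within the DMSO range. YARS1 and GARS1, for tyrosine and glycine, fell by 0.34 and 0.28. Named after their values were seen, ATF4 fell by 0.64, CHAC1, a glutathione-degrading enzyme, by 0.44, TRIB3, a pseudokinase that feeds back on ATF4, by 0.43, SLC7A1, a transporter of cationic amino acids, by 0.31, and CARS1, for cysteine, by 0.23. ATF5, a relative of ATF4 translated in the same way, went the other way, with 9.15 and 9.36 at 1500 nM, against 8.30 and 8.13 at 150 nM (1.04 ± 0.10, adjusted p = 1.84e-06). The other 3 probe sets of ATF5 changed by 0.10 to 0.69, and 1 of the 3 of SLC7A11 by −0.08. Without replicate 1 at 1500 nM 3 stress genes and 1 tRNA charging gene were called lower, without replicate 2 at 1500 nM 4 and 2, without replicate 1 at 150 nM 3 and 1, and without replicate 2 at 150 nM 4 and 3. With the arrays quantile normalized again 5 and 1 were called, and AARS1 was not called.

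The letters that ATF4 and its partners bind are shown for the members that hold them. The motif searched was TGATGNAA on both strands, with N for any base, in the RefSeq promoters of GRCh38.p14. It occurred in 4 of the 8 promoters found for the 10 lower genes of both lists (50%), beside 338 of the 14116 promoters found for tested genes (2.39%). Over all lower genes it occurred in 15 of 324 promoters (4.63%). The lists were drawn up from pathways that ATF4 is known to act in, and their members not called were not counted. The 50% therefore cannot tell lower members of the lists from the rest. Each line gives 60 bases with the match in capitals, from AARS1 (chr16:70289660-70289719, minus strand), CARS1 (chr11:3057392-3057451, minus strand), CHAC1 (chr15:40953236-40953295, plus strand) and SLC7A1 (chr13:29595648-29595707, minus strand).
AARS1: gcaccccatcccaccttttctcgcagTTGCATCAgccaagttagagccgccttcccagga
CARS1: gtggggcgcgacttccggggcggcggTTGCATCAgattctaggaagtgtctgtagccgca
CHAC1: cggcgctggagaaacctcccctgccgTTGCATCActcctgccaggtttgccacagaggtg
SLC7A1: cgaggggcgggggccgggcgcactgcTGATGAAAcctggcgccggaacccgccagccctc

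The match was read on the opposite strand in AARS1, CARS1 and CHAC1 and as spelled in SLC7A1. A match describes the letters only.

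**Figure D3:**
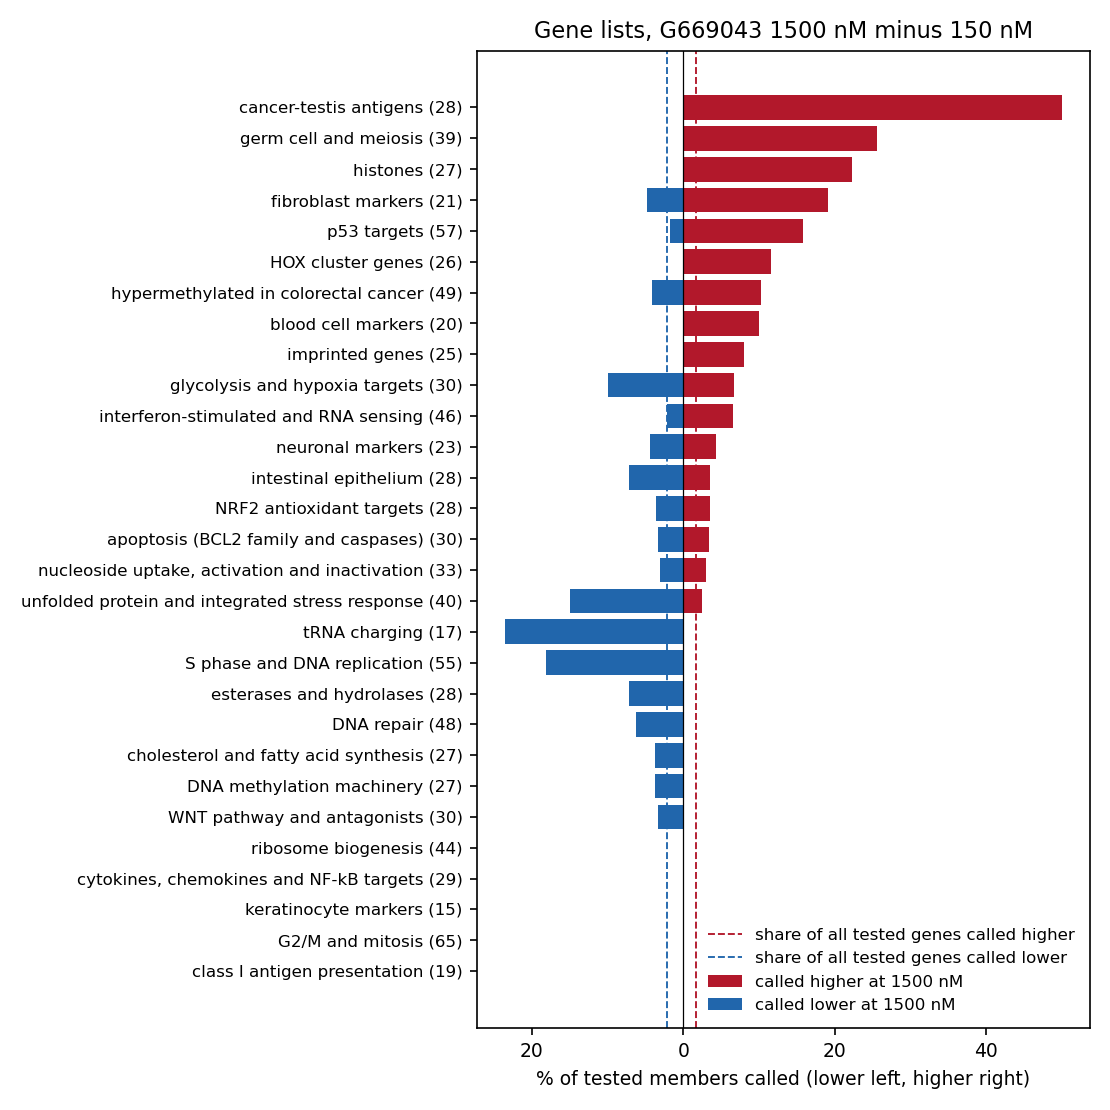
Share of the tested members of each gene list (number in brackets) called higher (red, right of 0) or lower (blue, left of 0) at 1500 nM than at 150 nM, with dashed lines at the shares of all tested genes, 1.69% and 2.18%. Cancer-testis antigens (50%) reach furthest to the right and tRNA charging (23.5%) and S phase genes (18.2%) furthest to the left.

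The largest single decreases fell mostly outside these pathways. PCDH7, a protocadherin of cell adhesion, had 9.74 and 9.88 at 1500 nM and 11.04 and 10.93 at 150 nM (−1.18 ± 0.15, SE, adjusted p = 4.98e-05), but 2 of its 5 probe sets went this way and the call was lost on their mean. ANXA10, an annexin of the stomach lining, had 8.48 and 8.45 at 1500 nM and 9.61 and 9.63 at 150 nM (−1.15 ± 0.08, adjusted p = 6.31e-09). HS3ST1, a heparan sulfate sulfotransferase, had 8.11 and 8.21 at 1500 nM and 9.20 and 9.27 at 150 nM (−1.07 ± 0.21, adjusted p = 0.00549). The 1500 nM arrays of all 3 lay below every DMSO array. ANXA10 at 150 nM also lay under its DMSO range of 9.75 to 9.95. ACSM3, a mitochondrial medium-chain acyl-CoA synthetase, had 5.91 and 5.84 at 1500 nM and 7.06 and 6.82 at 150 nM (−1.07 ± 0.16, adjusted p = 0.000486). SCAI, a suppressor of cell invasion, had 6.36 and 6.40 at 1500 nM and 7.38 and 7.34 at 150 nM (−0.98 ± 0.15, adjusted p = 0.000467). ADGRF1, an adhesion G protein-coupled receptor, DNAJC12, a heat shock co-chaperone, KRT222, a keratin-like gene, and ARHGAP18, a GTPase-activating protein, fell by 0.79 to 0.89. The other probe sets of SCAI changed by −0.01 and −0.24 and those of DNAJC12 by −0.34 and −0.20, and 1 of the 4 of ADGRF1 by 0.05. Those of HS3ST1 changed by −0.27 and 0.10. KRT222 and ARHGAP18 lost the call without any 1 of the 4 arrays, and HS3ST1 lost it without replicate 1 at 1500 nM and without replicate 2 at 150 nM. MYC, the growth-driving transcription factor, was the only called member of 30 WNT pathway genes, with 11.30 and 11.25 at 1500 nM, against 11.83 and 11.82 at 150 nM (−0.55 ± 0.08, adjusted p = 0.000391). That is 3.33% of the list called lower, beside 2.18% of all tested genes.

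Among genes of DNA methylation and of drug handling 1 or 2 members of each list were called, too few to speak for the lists. Called lower were 3.70% of the methylation, 3.03% of the nucleoside and 7.14% of the esterase list, beside 2.18% of all tested genes. Called higher were 0%, 3.03% and 0%, beside 1.69%. DNMT1 had 10.52 and 10.55 at 1500 nM and 10.58 and 10.53 at 150 nM (−0.02 ± 0.11, SE, adjusted p = 0.953). DNMT3A and DNMT3B, the de novo methyltransferases, differed by 0.02 ± 0.10 and −0.02 ± 0.17, and UHRF1, which guides DNMT1 to hemimethylated DNA, by −0.08 ± 0.13, with adjusted p from 0.844 to 0.971 by limma. On the probe sets chosen, the arrays of the doses overlapped or touched in these 4 genes. Other probe sets of DNMT3A changed by 0.01 and 0.42, the latter with 7.21 and 7.11 at 1500 nM and 6.79 and 6.70 at 150 nM. The arrays measure RNA, not the DNMT1 protein that such drugs trap. Of the 27 genes of the methylation machinery, MAT2A, which makes the methyl donor S-adenosylmethionine, was the 1 called, with a fall of 0.37. Of 33 genes for nucleoside uptake, activation and inactivation, UPP1, a uridine phosphorylase, rose by 0.73 and DCTPP1, a pyrophosphatase that clears modified dCTP, fell by 0.18. Of 28 esterases and hydrolases, the kind of enzyme that can cleave a prodrug, ABHD10, a mitochondrial depalmitoylase, had 11.49 and 11.43 at 1500 nM and 12.04 and 12.11 at 150 nM (−0.62 ± 0.07, adjusted p = 1.2e-05), and BPHL, a hydrolase of amino acid ester prodrugs, fell by 0.42. MAT2A and DCTPP1 lost the call without any 1 of the 4 arrays, UPP1 without replicate 2 at 150 nM and BPHL without any 1 but replicate 1 at 1500 nM. ABHD10 at 150 nM was itself below the DMSO range of 12.24 to 12.39.

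Interferon-stimulated and RNA-sensing genes, which DNMT inhibitors can switch on through double-stranded RNA of endogenous retroviruses, were mostly not called. Of 46 tested, 3 (6.52%) rose and 1 (2.17%) fell, beside 1.69% and 2.18% of all tested genes, with a median of −0.04. IRF7, a transcription factor of the interferon response, had 9.13 and 9.24 at 1500 nM and 7.92 and 8.43 at 150 nM (1.01 ± 0.16, SE, adjusted p = 0.000718). IFI27 rose by 0.69 and DDX60, an RNA sensor, fell by 0.66, and both lost the call without any 1 of the 4 arrays. The third higher member, IFITM1, a membrane protein that blocks virus entry, rose by 0.64 and was named after its value was seen. Of 19 genes of class I antigen presentation and 29 cytokine, chemokine and NF-kB genes, 0 were called. Among 30 apoptosis genes, BAK1, a pore-forming BCL2 relative, rose by 0.41 and BID, a BH3-only protein, fell by 0.30 (3.33% each way). Both lost the call without replicate 1 or without replicate 2 at 1500 nM. In the list of 30 glycolysis and hypoxia targets 2 (6.67%) rose and 3 (10%) fell. The glucose transporters SLC2A1 and SLC2A3 rose by 0.62 and 0.54. VEGFA, a growth factor for blood vessels, ADM and PFKM fell by 0.69, 0.27 and 0.35, the last 2 named after their values were seen. SLC2A1 lost the call on its other probe set (0.36, adjusted p = 0.355 by limma), VEGFA without any 1 of the 4 arrays, and SLC2A3 without any 1 but replicate 2 at 150 nM. The other probe sets of VEGFA changed by −0.09, −0.25 and −0.02. Of 28 NRF2 targets, CBR1, a carbonyl reductase, rose by 0.60 and SLC7A11 fell as above (3.57% each way). CBR1 lost the call without any 1 array but replicate 2 at 150 nM. Of 44 ribosome biogenesis genes 0 were called. For 9 of the 29 lists, with medians between −0.06 and 0.03, the sign of the median changed with another scaling of the arrays. They are the nucleoside, esterase, apoptosis, imprinted, fibroblast, cytokine, cholesterol, NRF2 and glycolysis lists.

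Aza was given at the same doses, so the dose difference of each compound could be set beside that of the other, with no array in common. The signed dose difference, 1500 nM minus 150 nM, was higher with G669043 in 55 genes (0.305% of those tested) and lower in 26 (0.144%), 81 (0.449%) in all. With the arrays centred on their medians this split was 54 and 84, and without any 1 of the 8 arrays of both compounds 38 to 54 genes were called in all. Between the Aza doses 435 genes (2.41%) were called higher and 610 (3.38%) lower. Of the 306 genes higher with G669043, 123 were also called higher between the Aza doses, which is 40.2% of the G669043 genes and 28.3% of the Aza genes. Of the 393 lower genes, 115 were called lower with Aza, 29.3% of the G669043 genes and 18.9% of the Aza genes. Across all genes Pearson's r between the dose differences was 0.56 and Spearman's rank correlation 0.38, where genes are not independent replicates. Of the higher genes 33 had a dose difference called larger than with Aza and 4 one called smaller.

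GJA1 differed most. It had 6.13 and 6.22 at 1500 nM and 3.61 and 3.65 at 150 nM of G669043, and 5.12 and 4.61 at 1500 nM and 4.84 and 5.09 at 150 nM of Aza. The dose difference was larger with G669043 by 2.65 ± 0.25 (SE, adjusted p = 9.31e-06). Aza gave an intermediate level at both doses. SRGN followed the same order, with 6.33 and 6.21 at 1500 nM and 6.02 and 6.13 at 150 nM of Aza, against the G669043 values above. Its dose differences differed by 2.50 ± 0.38 (adjusted p = 0.00165). DHRS2, a mitochondrial dicarbonyl reductase, had 12.36 and 12.52 at 1500 nM and 10.09 and 9.79 at 150 nM of G669043, and 11.42 and 11.31 at 1500 nM and 11.19 and 11.27 at 150 nM of Aza (2.36 ± 0.16, adjusted p = 8.88e-08). In these 3 genes G669043 lay above Aza at 1500 nM and below it at 150 nM on every array. No DMSO array reached the Aza level of any of the 3, the highest being 3.91 for GJA1, 4.90 for SRGN and 9.81 for DHRS2. SPARC, on the same probe set as above, also had a larger dose difference with G669043 (2.27 ± 0.34, adjusted p = 0.00168), with 7.09 and 6.99 at 1500 nM and 6.08 and 6.50 at 150 nM of Aza.

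The promoters of DHRS2 (chr14:23629865-23630164, plus strand, GRCh38.p14) and GJA1 (chr6:121435396-121435695, plus strand) are shown for their few CG dinucleotides, 0 and 3, beside the 18 of TKTL1 and 33 of DAZL above. TKTL1 and LIN28B, the latter with 37 CG, also had a dose difference called larger with G669043. The promoters shown thus do not stand for such genes.
DHRS2: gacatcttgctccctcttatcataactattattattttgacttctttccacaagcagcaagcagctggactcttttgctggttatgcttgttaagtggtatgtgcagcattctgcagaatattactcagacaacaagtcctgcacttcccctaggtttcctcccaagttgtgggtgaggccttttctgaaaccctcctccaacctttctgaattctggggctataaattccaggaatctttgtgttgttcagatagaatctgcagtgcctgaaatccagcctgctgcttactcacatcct
GJA1: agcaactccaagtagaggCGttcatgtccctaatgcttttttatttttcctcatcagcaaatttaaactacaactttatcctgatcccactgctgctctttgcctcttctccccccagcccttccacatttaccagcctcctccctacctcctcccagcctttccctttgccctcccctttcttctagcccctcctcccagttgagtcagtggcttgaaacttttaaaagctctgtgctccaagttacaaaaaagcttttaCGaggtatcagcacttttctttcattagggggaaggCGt

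RefSeq promoters matched 72.7% of the 33 higher genes with a larger dose difference, so a check of CG content over that set is void as well.

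**Figure D4:**
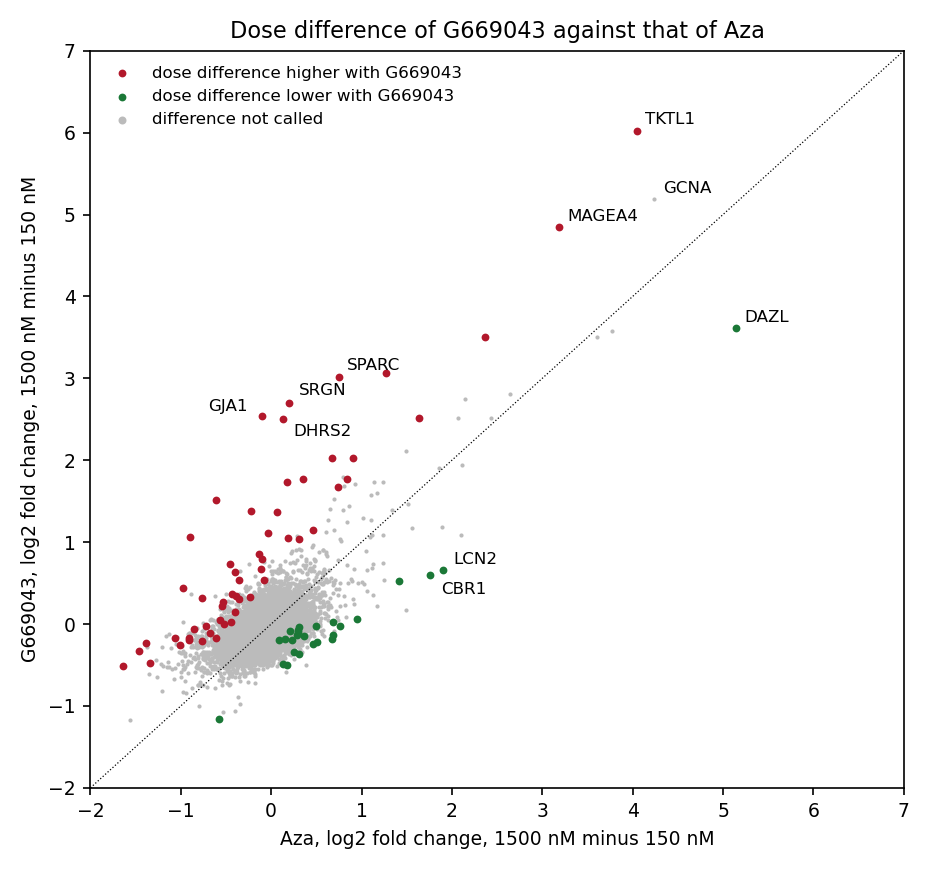
Each point is a gene, with the log2 fold change between the Aza doses on the x axis and between the G669043 doses on the y axis, both 1500 nM minus 150 nM, and a dotted line of equality. Red points (55) had a higher and green points (26) a lower dose difference with G669043; GJA1, SRGN and DHRS2 lie near 0 on the Aza axis and between 2.50 and 2.70 on the other.

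Germ line genes rose between the doses of both compounds. Between the Aza doses 13 of the 28 cancer-testis antigens and 11 of the 39 germ cell and meiosis genes were called higher, beside 2.41% of all tested genes. With G669043 these counts were 14 and 10. The difference between compounds was called in few members, and these went both ways. It was higher with G669043 in 2 antigens and 2 germ cell genes and lower in 1 germ cell gene. TKTL1, with 11.02 and 10.93 at 1500 nM and 7.13 and 6.73 at 150 nM of Aza, had a dose difference larger with G669043 by 1.98 ± 0.26 (SE, adjusted p = 0.000399). Its level at 1500 nM was higher with G669043 on both arrays and its level at 150 nM lower on both. MAGEA4, MAGEA11 and LIN28B likewise had larger differences, by 1.66 ± 0.26, 1.78 ± 0.31 and 1.14 ± 0.23 (adjusted p = 0.00293, 0.00763 and 0.025). DAZL went the other way, with 8.99 and 9.03 at 1500 nM and 3.87 and 3.87 at 150 nM of Aza, and a dose difference smaller with G669043 (−1.53 ± 0.30, adjusted p = 0.025). That call was lost without replicate 1 at 1500 nM of G669043, without replicate 1 at 150 nM of G669043 and without any 1 of the 4 Aza arrays, at adjusted p from 0.0908 to 0.135. MAEL, FMR1NB and ZFP42 had differences of −0.10 ± 0.18, −0.19 ± 0.28 and 0.17 ± 0.37, which did not pass. LCN2, an iron-binding protein of innate immunity, had 7.29 and 7.09 at 1500 nM and 6.57 and 6.50 at 150 nM of G669043, and 8.55 and 8.53 at 1500 nM and 6.68 and 6.60 at 150 nM of Aza (−1.24 ± 0.14, adjusted p = 8.54e-05). CBR1 had 5.61 and 5.66 at 1500 nM and 4.80 and 5.27 at 150 nM of G669043, and 6.81 and 6.76 at 1500 nM and 4.93 and 5.12 at 150 nM of Aza (−1.16 ± 0.18, adjusted p = 0.00293). For both genes the compounds were close at 150 nM and apart at 1500 nM.

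**Figure D5:**
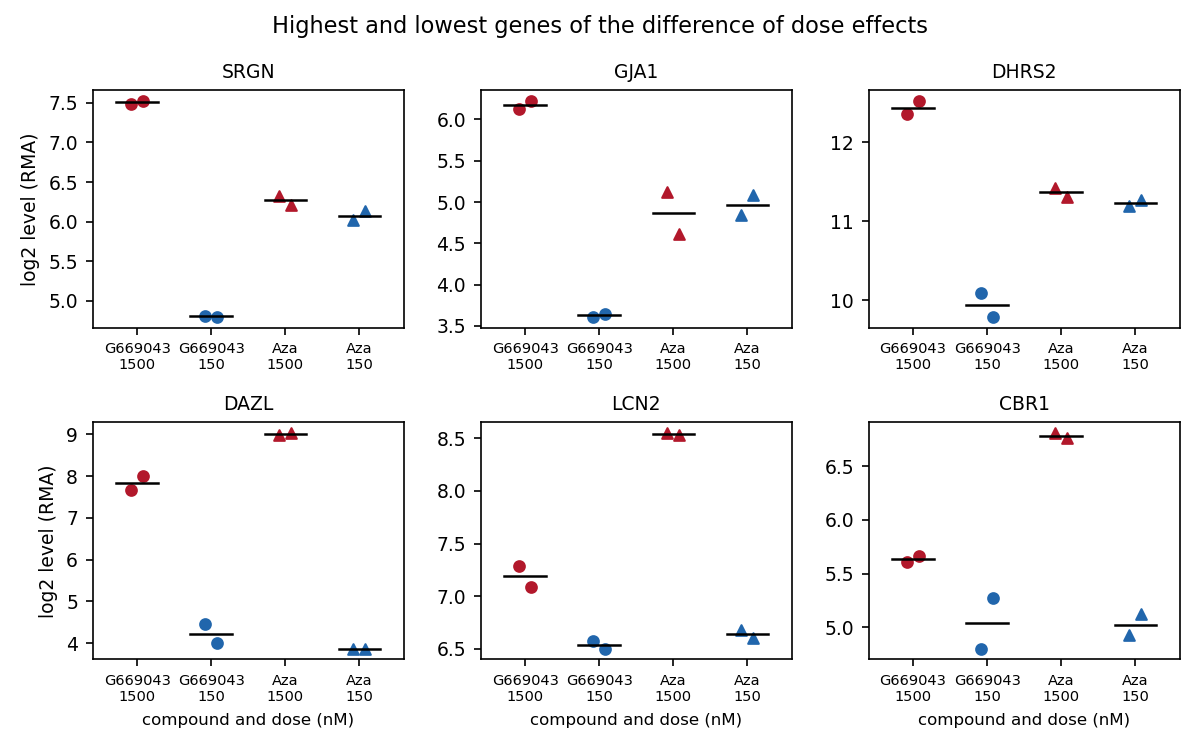
Log2 level on each array of the 3 highest (top row) and 3 lowest (bottom row) genes of the difference of dose effects, with a line at each group mean. GJA1, SRGN and DHRS2 differ between the G669043 doses and hardly between the Aza doses, while DAZL, LCN2 and CBR1 reach a higher level with Aza at 1500 nM (8.99 and 9.03 for DAZL) than with G669043 (7.68 and 8.01).

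The compounds differed in 4 genes that make sterols and fatty acids. Of 27 tested members 1 (3.70%, beside 2.18% of all tested genes) fell between the G669043 doses. It was ELOVL6, a fatty acid elongase, by 0.48, and the median of the list was −0.06. ELOVL6 lost the call without any 1 of the 4 arrays. Between the Aza doses 15 of the 27 fell and 0 rose, with a median of −0.38, where 3.38% of all tested genes fell. The difference itself was called in 4 members, all higher with G669043 and named after their values were seen: IDI1 by 0.53, LSS by 0.55, STARD4 by 0.73 and SCD by 1.15. These encode an isoprenoid isomerase, the sterol-forming cyclase, a sterol carrier and the stearoyl-CoA desaturase. The other 23 members did not pass that test. Among interferon-stimulated genes IFI6, IFIT1 and IRF9, also named after their values were seen, had dose differences higher with G669043 by 0.57, 0.76 and 0.76. With G669043 they changed by −0.10, −0.25 and 0.22, and with Aza by −0.68, −1.01 and −0.54. Among the 40 tested stress response genes, 9 fell and 1 rose between the Aza doses, against 6 and 1 between the G669043 doses. Their median change was −0.12 with Aza and −0.11 with G669043. The difference itself was called higher with G669043 in 1 of them and lower in 1, with a median of 0.02. The lower one, ASNS, the asparagine synthetase, changed by −0.24 with G669043 and 0.46 with Aza, a difference between compounds of −0.70. ASNS was also named after its values were seen. CDKN1C, the p57 inhibitor of cyclin-dependent kinases, had 9.07 and 9.19 at 1500 nM and 8.79 and 8.74 at 150 nM of G669043, and 8.48 and 8.46 at 1500 nM and 8.88 and 8.92 at 150 nM of Aza (0.79 ± 0.11, SE, adjusted p = 0.000697). It was thus higher at the larger dose of G669043 and lower at the larger dose of Aza. In the S phase list 0 members fell and 2 rose between the Aza doses, against the 10 that fell with G669043, but no member passed the test of the difference. The median of that difference over the list was −0.16, against −0.01 over all genes. In the p53 list no member passed it either, and 13 of 57 members rose between the Aza doses, beside 2.41% of all tested genes. Of the 6 histone genes above, 0 passed. ATF5, ANXA10, KRT20 and VIM, all described above, had dose differences that differed from those of Aza by 0.73 ± 0.14, −0.58 ± 0.11, 0.93 ± 0.16 and 0.88 ± 0.12 (adjusted p = 0.0222, 0.0183, 0.00866 and 0.000558).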

How the data were processed

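RNA of HCT116 cells was hybridized to 24 arrays, grouped by the compound and dose in the titles. Per the submitters' processing notes, the authors ran RMA with Expression Console 1.1. What they deposited are linear intensity values, and log2 was taken here. No genome build is given in the labels read here. Probe sets reaching a log2 of 5 on at least 2 arrays with 1 gene symbol were kept, and of several for a gene the one with the highest mean over all arrays stood for it. A model with a mean per group on all arrays was fitted with limma 3.58.1 in R 4.3.3 (lmFit, then eBayes with a trend on intensity; residual degrees of freedom 13), and p-values were 2-sided with Benjamini-Hochberg adjustment over 18055 genes. Errors of fold changes are SEs with 2 arrays per group, which limits the precision. The code of the fit was run on simulated data with independent noise and no split between DMSO arrays. Those settings differ from these data, so that run does not bear on the calls here. Named genes were the 15 most raised and 10 most lowered called genes with groups apart, up to 3 called members per list, DNMT1, DNMT3A, DNMT3B, UHRF1, and the 3 highest and 3 lowest of the difference from Aza. The members, the 29 gene lists and these rules were chosen with earlier results of these data known. Summed levels are the log2 of summed linear values. Figures used Python 3.11.15 and matplotlib 3.10.9.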

Additional observations from a re-analysis of the deposited data

Results flagged for a closer look

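In 2 of 77 named genes 1 of the 4 DMSO arrays lay far from the others relative to their range. FMR1NB was at 3.43 on DMSO replicate 1, against 3.62 on the nearest other array, and GJA1 was at 3.39 on DMSO replicate 2, against 3.83. Chance marks about 1 in 20 groups this way, and these levels enter the comparison of the doses only through the spread that all arrays share. The signed dose difference, 1500 nM minus 150 nM, of G669043 differed from that of Aza, by the test of the difference itself, in 18 named genes. It was higher with G669043 in GJA1 (2.65), SRGN (2.50), DHRS2 (2.36), SPARC (2.27), TKTL1 (1.98), MAGEA11 (1.78), MAGEA4 (1.66), LIN28B (1.14), KRT20 (0.93), SLC2A3 (0.90), CORO1A (0.90), VIM (0.88), CDKN1C (0.79) and ATF5 (0.73), all on the log2 scale. It was lower in DAZL (−1.53), LCN2 (−1.24), CBR1 (−1.16) and ANXA10 (−0.58), where ANXA10 fell between the doses of both compounds and more so with G669043. Probe sets without a single gene name were outside the comparison. Of 1599 with several symbols 41 were higher and 21 lower at 1500 nM, and of 7681 not named here 34 were higher and 31 lower. The most raised with several symbols, 208235_x_at, had 10.17 and 10.20 at 1500 nM and 5.49 and 5.62 at 150 nM (4.63 ± 0.12, SE, adjusted p = 2.73e-16 by limma), with DMSO at 5.00 to 5.54. The most raised of those not named here, 1556395_at, had 9.77 and 9.92 at 1500 nM and 4.20 and 4.35 at 150 nM (5.57 ± 0.12, adjusted p = 3.1e-17 by limma), with DMSO at 3.81 to 4.02.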

How the results depend on the processing

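Of 73 named genes called between the doses, 38 kept direction and call in every alternative run and 31 lost the call without at least 1 of the 4 G669043 arrays. UCHL1 (−0.040), PMS1 (0.21) and HOXB6 (−0.0049) changed direction without probe sets ending _s_at or _x_at, where another probe set stands for the gene. Genes with only such probe sets, VIM and MYC among them, were not in that run. The 38 thus kept direction and call in the runs that held them, not in all runs. Among genes not called, DNMT1 became 0.10, DNMT3B 0.068 and UHRF1 0.027 after renewed quantile normalization, DNMT3A −0.010 after median centring, DNMT1 0.0097 with the beta-actin covariate, and DNMT3B 0.099 and UHRF1 0.057 with the score along the DMSO split as covariate. Leaving out 1 G669043 array moved DNMT1 between −0.045 and 0.0050, DNMT3A between −0.015 and 0.055, DNMT3B between −0.095 and 0.055 and UHRF1 between −0.195 and 0.045. Genes called between the doses numbered 1158 in all and 783 lower with only the arrays compared, 256 lower after renewed quantile normalization, and 2770 in all, 907 higher and 1863 lower with the beta-actin covariate. Leaving out 1 array gave 230 to 256 in all, 121 to 162 higher and 94 to 123 lower. The difference from Aza was called in 50 genes in all and 12 lower without those probe sets, 127 in all and 88 higher after quantile normalization, 138 in all and 84 lower after median centring, 14 lower with no intensity trend, 615 in all, 267 higher and 348 lower with only the arrays compared, and 344 in all, 123 higher and 221 lower with the beta-actin covariate. Leaving out 1 array gave 38 to 54 in all, 31 to 44 higher and 7 to 13 lower. With the replicate number as a block, 1431 genes (553 higher, 878 lower) were called between the doses and 248 (121 higher, 127 lower) in the difference from Aza. The replicate numbers pair only by label: the deviations of the numbered arrays correlated at −0.13 across genes. Chosen after seeing the data, a block with crossed numbers gave 1538 (585 and 953) and 309 (145 and 164) calls. Also chosen then, DMSO as 2 groups gave 1378 (529 and 849) and 276 (127 and 149), and the score along the DMSO split as covariate gave 1488 (674 and 814) and 772 (345 and 427). Between the doses, all 306 higher and 393 lower genes remained called with the block, the crossed block, DMSO as 2 groups and the beta-actin covariate, and 305 and 393 with the split score. The cause of these changes was not tested, except that fits without 1 array hold fewer arrays. With 2 arrays per dose, changes under about 0.24 log2 units lie within the 95% interval of a typical gene, and levels near a log2 of 5 have unknown distance to background.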
